A study of Mus musculus with 6 samples.

Results

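The small proline-rich genes *Sprr1a*, *Sprr1b*, *Sprr2b*, *Sprr2d*, *Sprr2e*, *Sprr2f*, *Sprr2g*, *Sprr2h*, *Sprr2i* and *Sprr3* were followed in mouse submandibular salivary gland organoids (mSGOs) on day 5 and day 7 of culture. These 10 genes, of 47643 gene IDs in the count files, were picked by name because their counts were higher in 7-day than in 5-day mSGOs, so the difference between the days is given for them as a description, without a test. The annotation places 8 more *Sprr* genes in the same cluster, and these are shown beside the 10. Both groups were untreated, non-irradiated mSGOs grown in Matrigel from submandibular glands of C57BL/6 mice aged 8-12 weeks, in WRY medium with Wnt3a- and R-spondin1-conditioned medium, EGF, FGF2, N2, insulin, dexamethasone and Y27632. There were 3 libraries per day, and libraries with the same number came from the same mouse. An mSGO is a mixture of epithelial cells, and RNA was taken from whole cultures. A higher level of a gene through more cells of a type therefore cannot be told apart from more RNA per cell.

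SPRR proteins are small, proline-rich precursors of the cornified envelope, the cross-linked protein shell under the membrane of terminally differentiating squamous cells. Transglutaminases join them through glutamine and lysine residues to involucrin, loricrin and other envelope proteins, and SPRR proteins act as flexible bridges between these partners. The genes lie in the epidermal differentiation complex, a stretch of chromosome 3 in the mouse that also holds the late cornified envelope (*Lce*), S100 and filaggrin-type genes. *Sprr* genes are induced in stratified epithelia during squamous differentiation and also after stress or injury in epithelia that do not cornify.

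In GRCm39 the *Sprr* cluster spans 318713 bases, chr3:92123106-92441818, and the 10 genes lie within 169282 bases of it, chr3:92223927-92393208. The *Sprr2* genes sit on the plus strand. *Sprr1b*, *Sprr3* and *Sprr1a* follow them on the minus strand. All 10 have 2 exons in the canonical transcript. The coding sequence of *Sprr2f* was 90% identical to that of *Sprr2e*, 89.9% to *Sprr2i*, 87.1% to *Sprr2g* and 80.8% to *Sprr2d*. It was 66.0% identical to *Sprr2b*, 63.3% to *Sprr2h*, 39.6% to *Sprr1b*, 39.4% to *Sprr1a* and 27.7% to *Sprr3*. The canonical *Sprr2g* transcript is annotated as one that the reference genome would not translate. The genome was searched with the last 400 bases of each transcript, keeping only ungapped alignments without a mismatch. For the 10 genes none of 50 bases or more was found away from the gene itself. Any alignment with a mismatch was dropped, so exact stretches of 50 bases inside such alignments may have been missed. Whether a 3′-end read of that length fits only 1 of these genes was therefore not settled.

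The 200 bases before the annotated start of 8 genes are shown 5′ to 3′ on the gene's strand, from GRCm39, because they show which sequence features the paralogs share and which they lack. Capitals mark, in this order where present, the AP-1 letters TGANTCA, the octamer ATTTGCAT and the TATA letters TATAAA. *Sprr2f* (chr3:92272294-92272493), *Sprr2d* (chr3:92246247-92246446), *Sprr2h* (chr3:92292792-92292991) and *Sprr2b* (chr3:92223727-92223926) stand for the *Sprr2* genes among the 10. *Sprr2a3* (chr3:92192524-92192723) is an *Sprr2* gene outside them. The minus-strand genes are *Sprr1a* (chr3:92393209-92393408), *Sprr1b* (chr3:92346097-92346296) and *Sprr3* (chr3:92366032-92366231).
Sprr2f: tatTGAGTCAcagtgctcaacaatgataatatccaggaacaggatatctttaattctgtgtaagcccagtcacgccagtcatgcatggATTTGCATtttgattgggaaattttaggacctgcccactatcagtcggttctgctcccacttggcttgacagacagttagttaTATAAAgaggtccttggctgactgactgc
Sprr2d: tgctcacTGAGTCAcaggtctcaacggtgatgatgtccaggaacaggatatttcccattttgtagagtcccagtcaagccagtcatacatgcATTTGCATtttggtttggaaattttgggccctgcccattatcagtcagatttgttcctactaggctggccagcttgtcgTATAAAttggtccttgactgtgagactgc
Sprr2h: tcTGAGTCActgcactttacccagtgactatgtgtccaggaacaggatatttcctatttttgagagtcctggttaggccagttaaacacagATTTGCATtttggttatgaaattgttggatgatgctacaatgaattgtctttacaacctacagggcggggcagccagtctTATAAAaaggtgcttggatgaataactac
Sprr2b: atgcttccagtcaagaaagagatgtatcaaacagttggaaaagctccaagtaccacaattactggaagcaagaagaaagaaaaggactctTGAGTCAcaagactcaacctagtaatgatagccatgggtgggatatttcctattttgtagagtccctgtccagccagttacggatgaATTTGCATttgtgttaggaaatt
Sprr2a3: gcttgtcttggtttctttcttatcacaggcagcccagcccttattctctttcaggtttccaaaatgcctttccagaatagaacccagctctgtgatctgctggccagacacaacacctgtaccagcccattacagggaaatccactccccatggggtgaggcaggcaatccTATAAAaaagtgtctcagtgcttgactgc
Sprr1a: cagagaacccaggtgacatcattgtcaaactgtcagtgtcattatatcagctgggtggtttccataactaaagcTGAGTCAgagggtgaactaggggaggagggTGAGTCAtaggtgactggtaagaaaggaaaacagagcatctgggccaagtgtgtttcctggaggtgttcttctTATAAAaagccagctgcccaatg
Sprr1b: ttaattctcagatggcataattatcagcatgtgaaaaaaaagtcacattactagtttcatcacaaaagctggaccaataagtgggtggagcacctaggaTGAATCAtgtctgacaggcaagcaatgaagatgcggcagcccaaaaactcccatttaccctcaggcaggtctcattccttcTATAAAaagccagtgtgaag
Sprr3: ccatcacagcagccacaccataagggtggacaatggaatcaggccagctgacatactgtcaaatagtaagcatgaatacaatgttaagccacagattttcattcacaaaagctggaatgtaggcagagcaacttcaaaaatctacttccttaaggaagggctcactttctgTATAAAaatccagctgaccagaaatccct

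The AP-1 letters TGANTCA, with any base in the middle, are a loose form of the site bound by Fos and Jun proteins. They were present in 9 of the 10 windows, all but that of *Sprr3*, against 4.93% of the windows of 21236 protein-coding genes. The match was TGAATCA in *Sprr1b* and TGAGTCA in the other windows with a match. The octamer, in the form ATGCAAAT on one strand and ATTTGCAT on the other, is bound by POU factors. It was present in all 7 *Sprr2* windows and in none of the other 3, against 1.26% of all windows. Only 26 windows of the 21236 (0.122%) held both, and 9 of these 26 belonged to *Sprr2* genes, the 7 named here plus *Sprr2j-ps* and *Sprr2k*. In those 7 genes the octamer began 85 to 89 bases after the AP-1 letters, also in *Sprr2b*, where both lay closer to the annotated start. TATAAA was found in 9 of the 10 windows, all but that of *Sprr2b*, against 9.48% of all windows. In *Sprr2b* the octamer began 23 bases before the annotated start, against 108 in *Sprr2d*. Bases as far after the octamer as the TATAAA of *Sprr2d* therefore lay outside the *Sprr2b* window and were not searched. The letters CCACCC, bound by KLF factors, were in 4 windows (*Sprr1a*, *Sprr1b*, *Sprr2b*, *Sprr3*) against 25.3%. The NRF2-type letters TGACNNNGC were in 2 windows (*Sprr1a*, *Sprr2f*) against 8.16%, and the match of *Sprr1a* overlapped its first AP-1 site. The grainyhead-type letters AACNGGTT were in 0 of 10 windows against 1.40%. Both strands were searched for every motif. The windows of paralogs are related by descent (78.4% identity between *Sprr2f* and *Sprr2e*), so they are not independent examples.

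Total counts in genes lay between 1918198 and 2652710 at day 5 and between 2154261 and 2837397 at day 7. A count of 0 in a library allows up to 3 counts, or 1.04 to 1.51 CPM, that is counts per 1000000 counts of the scaled library. The epithelial markers *Krt5*, *Krt14* and *Epcam* were present in all 6 libraries, with *Krt5* at 3373 CPM or more in each. Of the 8 epithelial markers listed, *Krt19* was higher at day 7, with 57.3, 47.2 and 54.8 CPM and then 205, 145 and 199 CPM (adjusted p = 1.6e-05, edgeR's quasi-likelihood test). *Krt8* was lower, with 120, 95.4 and 111 CPM and then 78.2, 60.8 and 68.5 CPM (adjusted p = 0.037, same test). Summed levels of 7 acinar markers were 6.03 to 12.25 CPM at day 5 and 11.5 to 25.5 CPM at day 7, with *Prol1* and *Lpo* at 0 throughout. The sums of the 8 epithelial markers lay between 11561 and 18162 CPM. Most of each acinar sum was *Aqp5*, with 7.84, 5.02 and 9.73 CPM and then 9.97, 10.8 and 24.0 CPM. All its 7-day levels were above its 5-day levels, but *Aqp5* did not pass (log2 fold change 0.93, adjusted p = 0.12, edgeR's quasi-likelihood test). Of 10 macrophage markers 7 were at 0 in all libraries, and the sum was 8.03 to 10.7 CPM at day 5 and 9.30 to 13.9 CPM at day 7. Most of the day 5 sum was *Cd14*, with 9.07, 7.03 and 8.29 CPM and then 6.52, 7.98 and 2.45 CPM. *Cd14* did not pass (log2 fold change -0.48, adjusted p = 0.47, edgeR's quasi-likelihood test). Sums of 10 endothelial markers were 4.02 to 4.32 CPM at day 5 and 11.3 to 20.0 CPM at day 7, with *Cdh5* and *Tek* at 0 throughout. Of that list *Flt1* was higher at day 7, with 3.30, 1.00 and 1.80 CPM and then 15.3, 14.6 and 9.79 CPM (adjusted p = 0.00045, edgeR's quasi-likelihood test), and of the macrophage list *Cd68* was higher, with 1.65, 1.00 and 0.360 CPM and then 3.07, 5.90 and 6.85 CPM (adjusted p = 0.015, lost without day 5 replicate 2 at 0.074, day 5 replicate 3 at 0.11 or day 7 replicate 2 at 0.075). Sums of 10 fibroblast markers were 10.3 to 17.1 CPM at day 5 and 23.5 to 25.0 CPM at day 7, with *Col1a2*, *Col3a1*, *Lum* and *Dpt* at 0 throughout. Most of each sum was *Fbln1* alone, with 9.90, 16.1 and 15.1 CPM and then 22.6, 22.9 and 21.5 CPM. It did not pass (adjusted p = 0.10, edgeR's quasi-likelihood test). The part of these markers in the results was not tested. Over all genes, 1901 of 15792 tested (12.0%) differed by edgeR's quasi-likelihood test, with a log2 fold change beyond 0.6 in either direction and an adjusted p below 0.05, and 1140 (7.22%) did so with a higher level at day 7.

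*Sprr2f* was the most abundant of the 10 genes in 7-day mSGOs. It had 1.65, 3.01 and 4.32 CPM at day 5 in mice 1, 2 and 3, and 1664, 3097 and 728 CPM at day 7. The lowest 7-day library was thus far above the highest 5-day library, while the 7-day libraries differed widely among themselves. The log2 fold change was 9.21 ± 0.53 (SE), and 8.60 without day 7 replicate 2. Within a mouse the rise was 1008-fold in mouse 1, 1028-fold in mouse 2 and 168-fold in mouse 3.

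*Sprr2d* followed it among the *Sprr2* genes. Its counts at day 5 were 0, 3 and 2, or at most 1.51 CPM in a library, and its 7-day levels were 342, 608 and 179 CPM. The log2 fold change was 8.98 ± 0.56, and 9.77 without day 5 replicate 2, which held 3 of the 5 counts of that day. The upstream windows of *Sprr2d* and *Sprr2f* are 75.5% identical.

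*Sprr2h* had the highest 5-day mean of the *Sprr2* genes among the 10. Its levels were 2.89, 11.1 and 5.40 CPM at day 5 and 130, 160 and 52.4 CPM at day 7. The groups did not overlap, and mouse 3 was again the lowest at day 7. The log2 fold change was 4.19 ± 0.42. Mouse 1, which had the lowest 5-day level, rose 45.03-fold, against 14.5-fold in mouse 2 and 9.69-fold in mouse 3.

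*Sprr2i*, *Sprr2e* and *Sprr2g* were at or near 0 counts in 5-day mSGOs. *Sprr2i* had 0 counts in all 3 5-day libraries and 89.7, 116 and 42.1 CPM at day 7, at least 64.9-fold higher when each 5-day library is set to the 3 counts that a 0 allows. *Sprr2e* had 2 counts in all at day 5 and 63.3, 98.9 and 25.9 CPM at day 7. The ratio of its pooled counts was 240, with a 95% counting interval from 66.1 to 1989. *Sprr2g* also had 2 counts at day 5 and reached 38.7, 42.4 and 7.34 CPM, a ratio of 114 (31.1 to 944), or 75.3 (20.6 to 626) without day 5 replicate 1. All 3 genes were highest in mouse 2 and lowest in mouse 3, and these intervals cover counting error only.

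*Sprr2b* was the lowest of the 10 at day 7, though not at day 5. It had 0.825, 2.51 and 1.08 CPM at day 5 and 5.75, 7.29 and 2.94 CPM at day 7. The smallest 7-day value lay just above the largest 5-day value. The log2 fold change was 1.92 ± 0.56, the second smallest of the 10 genes. With 10 counts in all at day 5 and 42 at day 7, it is the member closest to the threshold by which genes were called: its adjusted p rose above 0.05 without any of the day 5 libraries or without day 7 replicate 2 (log2 fold changes of 1.64, 2.45, 1.73 and 1.62), and by the Wald test of DESeq2.

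The *Sprr1* genes were already expressed in 5-day mSGOs. *Sprr1b* had 255, 270 and 277 CPM at day 5, nearly the same in the 3 mice, and 591, 546 and 332 CPM at day 7. The groups did not overlap, but the log2 fold change of 0.88 ± 0.21 was the smallest of the 10, and it lost the threshold without any of the day 5 libraries or without day 7 replicate 2 (0.84, 0.88, 0.90 and 0.79). Mouse 3 changed 1.20-fold, against 2.32-fold in mouse 1 and 2.03-fold in mouse 2. *Sprr1a*, whose coding sequence is 78.4% identical to that of *Sprr1b*, had 49.5, 59.7 and 81.4 CPM at day 5 and 637, 972 and 597 CPM at day 7. Its log2 fold change was 3.53 ± 0.25, and the rise within a mouse was 12.9-fold, 16.3-fold and 7.33-fold. The pair thus changed order: *Sprr1b* was above *Sprr1a* in all 3 libraries of day 5, and *Sprr1a* was above *Sprr1b* in all 3 libraries of day 7.

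*Sprr3*, known from the suprabasal layers of oral and oesophageal epithelium, had a single count at day 5, in mouse 1. At day 7 it had 88.2, 194 and 19.1 CPM. The ratio of pooled counts was 791 with a 95% counting interval from 142 to 31270, and it rests on that 1 count. Without day 7 replicate 2 the ratio was 416 (74.0 to 16493), without day 5 replicate 3 it was 486 (86.9 to 19202), and without day 5 replicate 1 *Sprr3* was at least 77.7-fold higher. The 3 mice lay further apart at day 7 for *Sprr3* than for any other of the 10 genes.

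**Figure D1:**
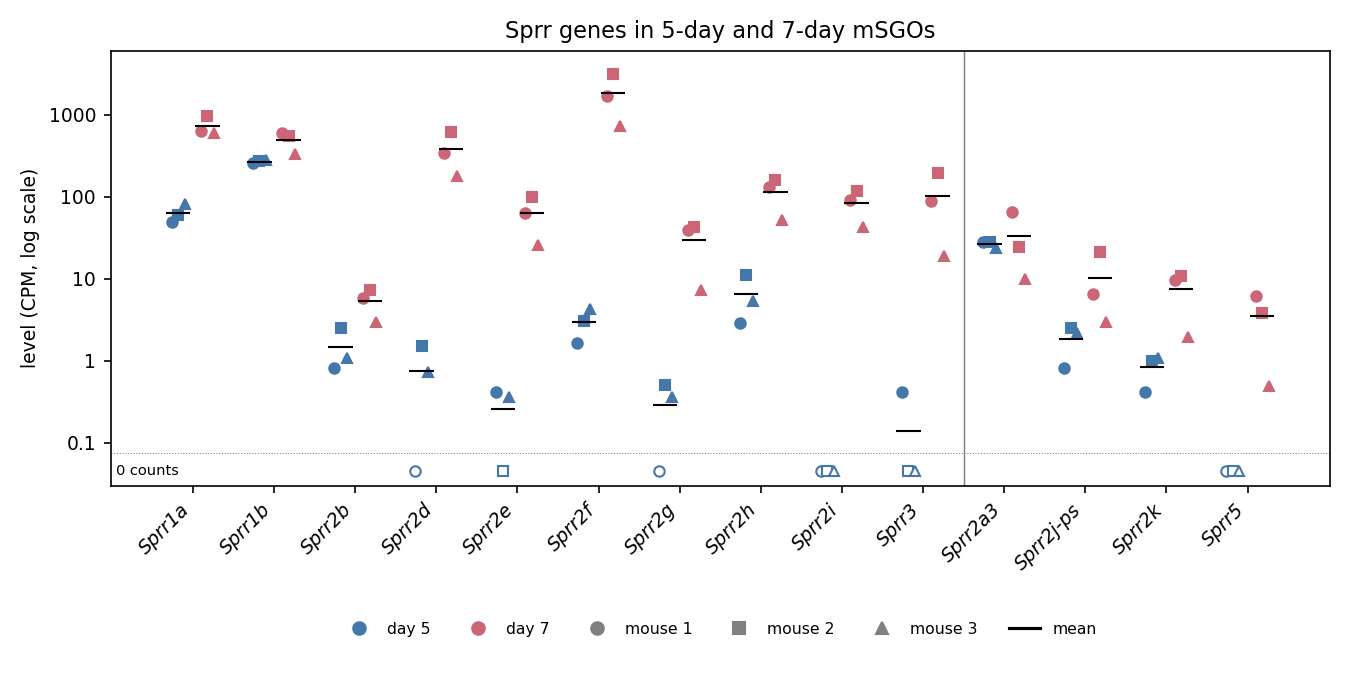
Levels of *Sprr* genes in each library, in CPM on a log axis, with day 5 in blue, day 7 in red, a marker shape for each mouse and a bar at the mean of 3 libraries; open symbols under the dotted line have 0 counts. Left of the vertical line are the 10 genes, whose day 7 symbols all lie above their day 5 symbols, and right of it 4 other *Sprr* genes with counts, of which *Sprr2a3* overlaps between the days.

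All 10 genes were past the threshold with a higher level at day 7, where 7.22% of all genes were, and all 10 had every 7-day library above every 5-day library, as 15.4% of all genes tested did. Since the genes were picked by this difference, nothing follows from either count. The median log2 fold change was 7.05, or 6.26 with *Sprr2i* at its lower bound, against -0.01 for all genes tested.

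The summed level of the 10 genes was 310, 348 and 371 CPM at day 5 and 3649.6, 5842 and 1986 CPM at day 7. The mean went from 343 ± 30.6 to 3826 ± 1934 CPM (SD, n = 3), an 11.2-fold difference, with 11.8-fold, 16.8-fold and 5.36-fold in mice 1, 2 and 3. The 10 genes took up 0.0314% to 0.0388% of the counts of a 5-day library and 0.188% to 0.593% of those of a 7-day library. Day 7 libraries were therefore both higher and more variable than day 5 libraries in this sum. Genes in general also varied more at day 7. Among genes whose mean of the day reached 10 CPM, the median coefficient of variation was 10.9% at day 5 and 23.1% at day 7.

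The make-up of this sum changed between the days. *Sprr1a* and *Sprr1b* together held 98.0%, 94.7% and 96.7% of the summed count at day 5, and 33.7%, 26.0% and 46.8% at day 7. *Sprr1b* alone went from 82.0%, 77.5% and 74.7% to 16.2%, 9.35% and 16.7%. The 7 *Sprr2* genes went from 1.86%, 5.34% and 3.30% to 63.9%, 70.7% and 52.2%, so that they outweighed the *Sprr1* genes in every 7-day library and in no 5-day library. The sum holds only genes picked for higher counts at day 7, so these shares depend in part on that choice. *Sprr2a3*, outside the sum, had 67, 55 and 65 counts at day 5 and 171, 71 and 20 at day 7. *Sprr2f* alone held 45.6% (exact 95% interval 44.6 to 46.6), 53.0% (52.3 to 53.8) and 36.7% (35.2 to 38.2) of the 7-day sums. The share of *Sprr1a* overlapped between the days, at 15.96%, 17.2% and 21.96% and then 17.4%, 16.6% and 30.1%.

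**Figure D2:**
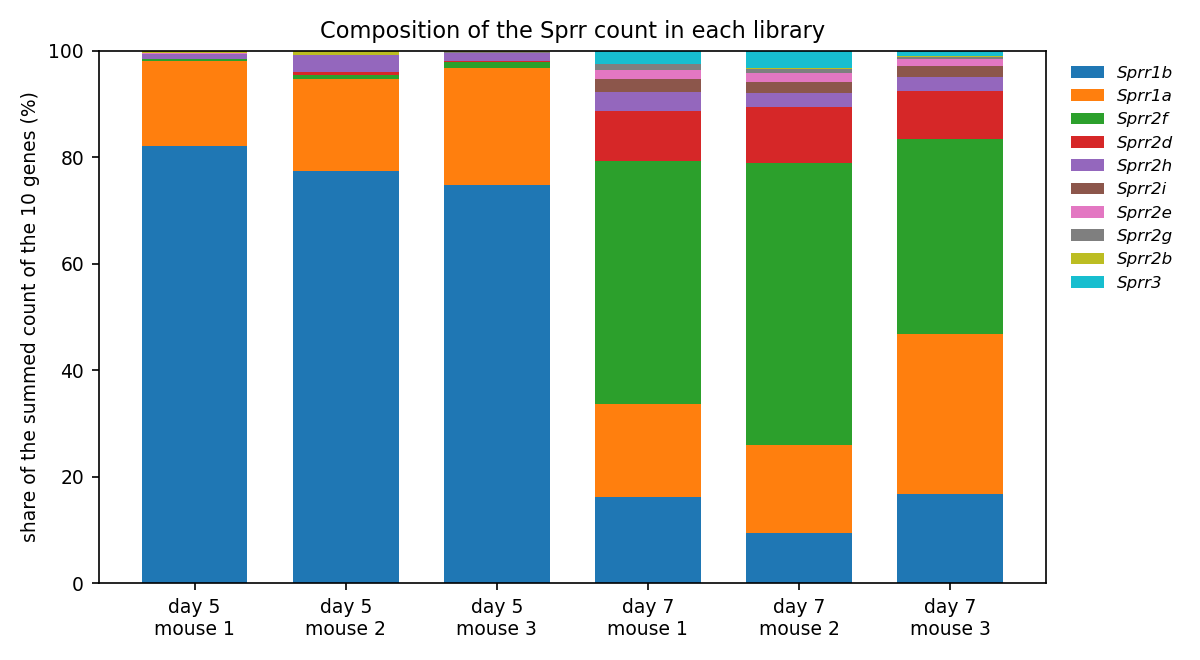
Share of each of the 10 *Sprr* genes in their summed count, in percent, with 1 bar per library. *Sprr1b* fills 74.7% to 82.0% of the 5-day bars, and *Sprr2f* is the largest part of each 7-day bar at 36.7% to 53.0%.

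Within the *Sprr2* genes among the 10, the mix at day 7 was similar in the 3 mice although their totals were not. The part of reads that fit more than 1 of these paralogs was not tested. The summed *Sprr2* count was 6083, 11896 and 2119. *Sprr2f* held 71.3% (exact 95% interval 70.2 to 72.5), 74.99% (74.2 to 75.8) and 70.2% (68.2 to 72.1) of it, and the interval of mouse 2 did not reach those of the other two. *Sprr2d* came next with 14.6%, 14.7% and 17.2%. *Sprr2h* held 5.57%, 3.87% and 5.05%, *Sprr2i* 3.85%, 2.82% and 4.06%, and *Sprr2e* 2.71%, 2.40% and 2.50%. *Sprr2g* varied most in proportion, from 1.66% in mouse 1 to 0.708% in mouse 3, and *Sprr2b* stayed between 0.177% and 0.283%. At day 5 the counts of these *Sprr2* genes were few (14, 37 and 34). Among them *Sprr2h* was the largest part with 50.0%, 59.5% and 44.1%, above *Sprr2f* with 28.6%, 16.2% and 35.3%. *Sprr2a3*, outside the 10, had 67, 55 and 65 counts at day 5, more than these *Sprr2* genes together in each library.

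By mean level at day 7 the order was *Sprr2f*, *Sprr1a*, *Sprr1b*, *Sprr2d*, *Sprr2h*, *Sprr3*, *Sprr2i*, *Sprr2e*, *Sprr2g* and *Sprr2b*. The method reads 1 site per transcript, at its 3′ end, so these levels are not divided by length. The first 2 steps of the order held in all 3 mice, *Sprr2f* being 1.22 to 3.19 times *Sprr1a*. *Sprr1b* was above *Sprr2d* in 2 of 3 libraries, *Sprr2h* above *Sprr3* in 2, and *Sprr3* above *Sprr2i* in 1, so these neighbours cannot be ordered beyond their spread. *Sprr2d* was 2.63 to 3.81 times *Sprr2h* in every mouse, and the steps from *Sprr2i* down to *Sprr2b* also held in all 3.

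The 3 mice kept 1 order at day 7 for 9 of the 10 genes, with mouse 2 highest, mouse 1 next and mouse 3 lowest. Among the 8144 genes whose 7-day mean reached 10 CPM, 17.7% had that order. *Sprr1b* was the exception, with mouse 1 highest. Some steps of the shared order were small or within counting error. For *Sprr1a* mouse 1 was 1.07-fold over mouse 3 (95% counting interval 0.990 to 1.15). For *Sprr2b* that interval was 0.718 to 6.16, and 0.969 to 7.52 for mouse 2 over mouse 3. For *Sprr2g* mouse 2 was 1.09-fold over mouse 1, on 122 and 101 counts. The distance between mouse 2 and mouse 3 differed among the genes. It was 1.63-fold for *Sprr1a* (95% counting interval 1.52 to 1.74) and 1.64-fold for *Sprr1b* (1.502 to 1.80), then 2.76-fold for *Sprr2i* (2.17 to 3.54), 3.40-fold for *Sprr2d* (3.04 to 3.82), 4.25-fold for *Sprr2f* (4.03 to 4.50) and 10.2-fold for *Sprr3* (7.34 to 14.4). The median over the 8144 genes was 0.985-fold. The intervals of the *Sprr1* genes did not reach those of *Sprr2i*, *Sprr2d*, *Sprr2f* or *Sprr3*, and the interval of *Sprr3* did not reach those of *Sprr2d*, *Sprr2e*, *Sprr2f*, *Sprr2h* or *Sprr2i*. Expressed as a coefficient of variation over the 3 mice, *Sprr1a* had 28.01% and *Sprr1b* 28.2%, close to the median of 23.1% for all these genes. The *Sprr2* genes had 41.4% to 65.3% and *Sprr3* 87.7%, against 46.6% at the 90th percentile of all these genes. Mouse 3 also had the smallest library of day 7, with 2154261 counts, and the part of depth was not tested.

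**Figure D3:**
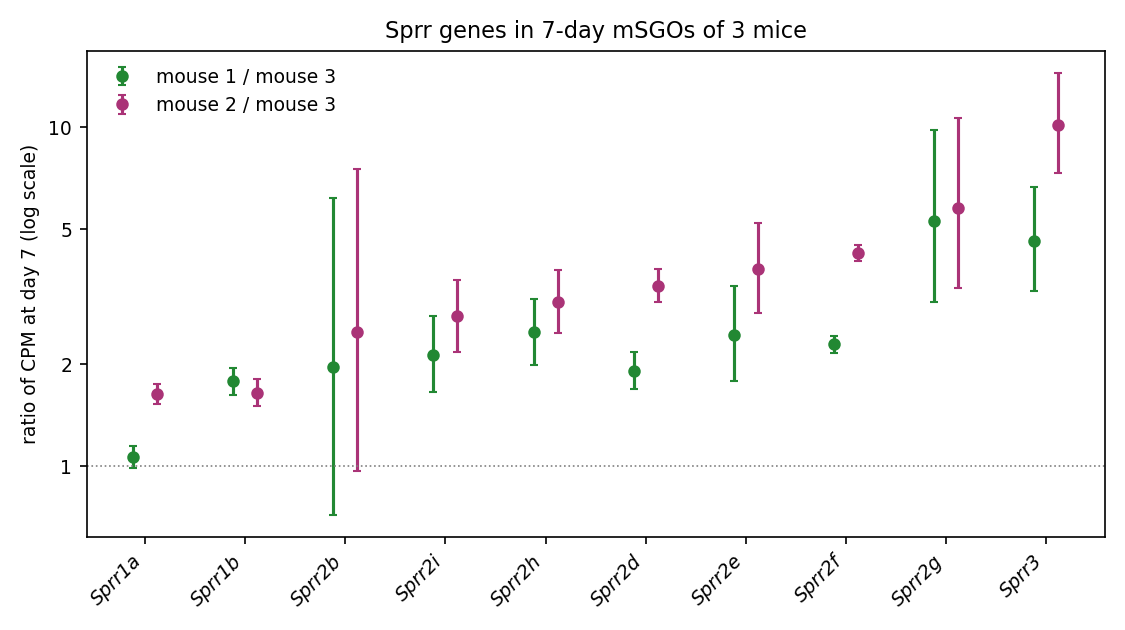
Level of each of the 10 *Sprr* genes at day 7 in mouse 1 (green) and mouse 2 (purple) divided by that in mouse 3, on a log axis, with exact 95% counting intervals and a dotted line at a ratio of 1. The ratio of mouse 2 to mouse 3 goes from 1.63 for *Sprr1a* to 10.2 for *Sprr3*, and the interval of *Sprr2b*, which has few counts, reaches below 1.

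The other *Sprr* genes of the cluster behaved in different ways. *Sprr2a3* was the most abundant in 5-day mSGOs among the *Sprr2* genes that had counts, with 27.6, 27.6 and 23.4 CPM. Its 7-day levels of 65.6, 24.6 and 9.79 CPM lay on both sides of these, and its log2 fold change of 0.36 ± 0.42 did not pass the test (adjusted p = 0.63, edgeR's quasi-likelihood test). Mouse 1 was 2.37-fold higher at day 7 and mouse 3 was at 0.418 of its 5-day level, and without day 7 replicate 1 the log2 fold change was -0.56. Its coding sequence was 64.1% identical to that of *Sprr2f*. Its upstream window, printed above, held TATAAA but neither the AP-1 letters nor the octamer, which says only that these letters are not in those 200 bases.

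*Sprr2k* had 0.413, 1.00 and 1.08 CPM at day 5 and 9.59, 10.8 and 1.96 CPM at day 7, a log2 fold change of 3.13 ± 0.66 (adjusted p = 0.0040, edgeR's quasi-likelihood test). *Sprr2j-ps*, whose symbol marks a pseudogene although the annotation types it as protein-coding, had 0.825, 2.51 and 2.16 CPM and then 6.52, 21.2 and 2.94 CPM, a log2 fold change of 2.51 ± 0.63 (adjusted p = 0.013). It lost the threshold without day 7 replicate 2 (1.39, adjusted p = 0.20), without day 5 replicate 1, 2 or 3 (0.096, 0.061 and 0.062) and under robust fitting (0.055). Both were low, and both had the AP-1 letters and the octamer. *Sprr5* had 0 counts at day 5 and 16, 11 and 1 at day 7, at least 2.73-fold higher, or 1.69-fold without day 7 replicate 1. *Sprr2c-ps* and *Sprr4* had 0 counts in all 6 libraries. *Sprr2a1* and *Sprr2a2* also had 0, but the last 400 bases of their transcripts are identical to each other, so a read from either fits both, and such reads may have been left uncounted. In each library 0 reads are entered as not uniquely aligned, and how such reads were handled is not known. Nothing can be said of the level of *Sprr2a1* and *Sprr2a2*.

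The genes that flank the cluster were looked at in the same way. *Lelp1*, the nearest protein-coding gene on the low-coordinate side, had 1 count in the 6 libraries. *Ivl*, the nearest on the other side, encodes involucrin, an early scaffold of the envelope. It had 35.5, 35.1 and 34.6 CPM at day 5 and 47.6, 61.4 and 48.0 CPM at day 7. All 7-day libraries were above all 5-day libraries, but the log2 fold change of 0.58 ± 0.21 did not pass (adjusted p = 0.088, edgeR's quasi-likelihood test), though it did without day 7 replicate 3 (0.64, adjusted p = 0.020). *Adrm1b*, inside the cluster and named after its values were seen, had 1.24, 1.00 and 2.16 CPM and then 0.767, 3.47 and 4.41 CPM.

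Of 20 envelope partners in the files, 18 were tested, 11 were higher and 1 was lower at day 7, with a median log2 fold change of 1.36, or 1.27 with the gene at 0 on day 5 set to its bound. The number past the threshold fell from 12 to 6 without day 5 replicate 1, day 5 replicate 3 or day 7 replicate 2. *Cnfn*, encoding cornifelin, had 0.412, 0.502 and 0.721 CPM and then 66.7, 166 and 33.3 CPM, a log2 fold change of 7.21 ± 0.65, or 6.37 without day 7 replicate 2. *Loricrin*, the main envelope protein of the epidermis, went from 1.24, 0.502 and 1.08 CPM to 6.90, 14.2 and 9.30 CPM (3.33 ± 0.51), so that its mean at day 7 was below that of 9 of the 10 *Sprr* genes. *Rptn*, the fused-type S100 protein repetin, had 1 count in 5-day and 171 in 7-day libraries. Their ratio was 163 (28.9 to 6488), or 108 (19.2 to 4300) without day 5 replicate 1, and *Rptn* was at least 15.8-fold higher without day 5 replicate 3, which held that count. *Dmkn*, dermokine, went from 210, 287 and 222 CPM to 667, 651 and 505 CPM (1.34 ± 0.20). *Tgm1*, the keratinocyte transglutaminase that cross-links SPRR proteins, went from 3.71, 2.01 and 1.80 CPM to 16.5, 8.33 and 1.96 CPM. Its 7-day level in mouse 3 was within the 5-day range, and its log2 fold change of 1.85 ± 0.58 lost the threshold without any library except day 7 replicate 3, being 1.11 without day 7 replicate 1. It also lost it under robust fitting (adjusted p = 0.072) and by the DESeq2 Wald test (0.072).

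The *Lce* genes of the same complex had the largest median change of the 4 lists set beside the *Sprr* genes. Of 24 *Lce* and neighbouring small envelope genes, 14 were tested, and 9 were higher and 0 lower at day 7, with 5 more that did not pass. Their median log2 fold change was 6.32, or 4.06 with genes at 0 on day 5 set to their bound and those with 3 counts or fewer left out. The genes that rose were *Crct1*, *Prr9*, *Lce1h* and 6 genes of the *Lce3* group, of which *Prr9* lost the threshold without day 7 replicate 2 (adjusted p = 0.063) and *Lce1h* without that library or day 5 replicate 1 or 2 (0.077, 0.059 and 0.057). *Lce3c* went from 0.825, 1.00 and 0.360 CPM to 71.7, 86.1 and 35.7 CPM (6.44 ± 0.47). *Crct1*, the cysteine-rich C-terminal gene of the complex, went from 0.825, 0 and 0.721 CPM to 136, 390 and 99.4 CPM (8.43 ± 0.63, or 7.60 without day 7 replicate 2). *Lce3f* and *Lce3a* had 0 counts at day 5 and were at least 35.0-fold and 49.2-fold higher at day 7, the latter at least 29.3-fold without day 7 replicate 2. The order of the mice seen for the *Sprr* genes, with mouse 2 first and mouse 3 last, was present in 8 of the 9 *Lce*-list genes that rose and in 3 of the 11 envelope partners that rose.

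S100 genes of the complex, which encode small calcium-binding proteins, were tested as a further list. Of 13 tested, 4 were higher and 0 lower, with a median of 0.27, and only 2 passed when libraries were scaled by their totals alone, or without day 7 replicate 2 or any day 5 replicate. *S100a8*, a subunit of calprotectin that keratinocytes make under stress, went from 43.3, 58.2 and 40.7 CPM to 294, 206 and 133 CPM (2.16 ± 0.26). *S100a7a*, the mouse psoriasin gene, went from 0.825, 2.01 and 1.08 CPM to 19.9, 22.9 and 10.3 CPM (3.78 ± 0.46). *S100a16* (0.61 ± 0.18) and *S100a1* (0.98 ± 0.30) passed by a narrow margin. *S100a16* did not pass with the mouse as a block (adjusted p = 0.054), and *S100a16* and *S100a1* were the genes lost without a day 5 replicate or day 7 replicate 2. Of the 4, *S100a7a* had the mouse order of the *Sprr2* genes, and *S100a8* was highest in mouse 1.

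**Figure D4:**
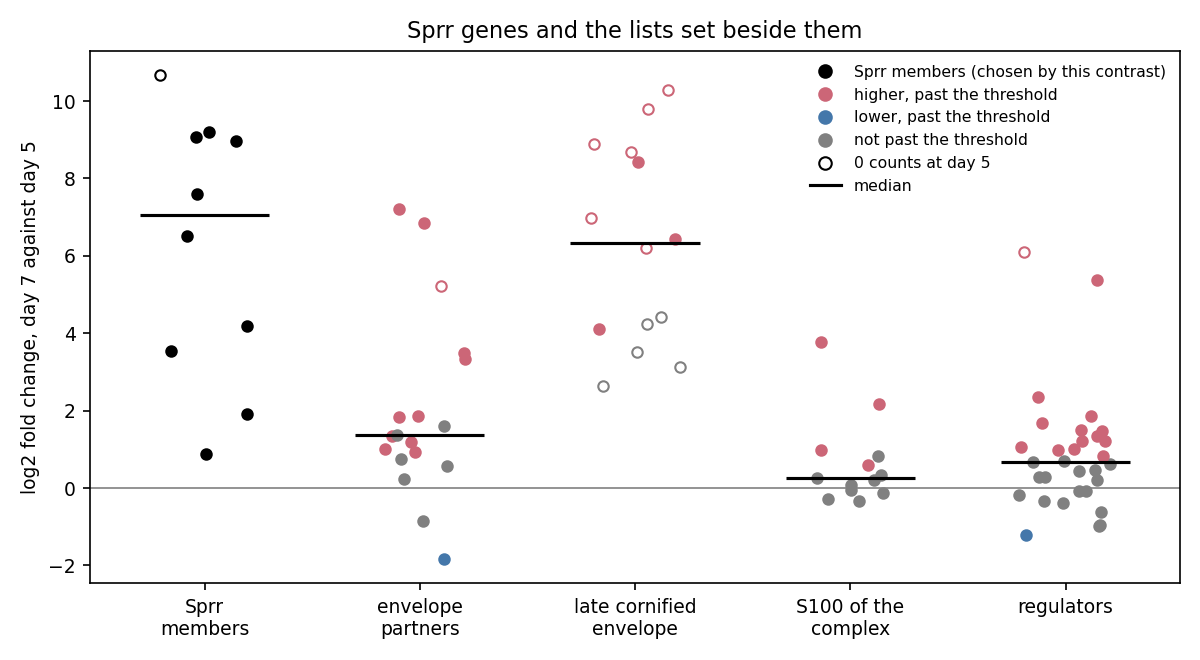
Log2 fold change of day 7 against day 5 by edgeR for the 10 *Sprr* genes (black, chosen by this contrast) and for the tested genes of 4 lists, with red and blue for higher and lower past the threshold, grey for the rest, open symbols for genes with 0 counts at day 5, whose fitted values are no bound, and a bar at the median. The medians are 7.05 for the *Sprr* genes, 1.36 for envelope partners, 6.32 for the late cornified envelope genes, 0.27 for the S100 genes and 0.69 for the regulators.

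Of 31 tested transcription factors known from squamous epithelium or from *Sprr* promoters, 14 were higher and 1 was lower at day 7, with a median log2 fold change of 0.69. The number past the threshold was 15, and 9, 9 and 8 without day 5 replicate 1, 2 and 3. *Jun*, a subunit of AP-1, went from 127, 92.4 and 115 CPM to 606, 697 and 409 CPM (2.36 ± 0.22, adjusted p = 2.3e-06, edgeR's quasi-likelihood test). *Jund* and *Fosl2*, further AP-1 subunits, were also higher (1.21 ± 0.25 and 1.34 ± 0.26), with no overlap between the days. *Junb* went from 116, 130 and 121 CPM to 297, 368 and 98.4 CPM, so that mouse 3 at day 7 lay below all 5-day libraries. Its log2 fold change of 1.06 ± 0.31 passed (adjusted p = 0.033), but not without any day 5 replicate (0.15, 0.14 and 0.13) or day 7 replicate 2 (0.23), nor under filterByExpr (0.075) or robust fitting (0.21). *Fosl1*, the AP-1 subunit FRA1, was lower, with 32.6, 19.6 and 21.6 CPM and then 14.96, 11.1 and 4.90 CPM (-1.22 ± 0.34). It lost the threshold without any day 5 replicate or day 7 replicate 2 (-0.97, -1.36, -1.32 and -1.27). *Fos* went from 118, 43.7 and 49.7 CPM to 78.6, 14.6 and 12.2 CPM and did not pass (-0.99 ± 0.50, adjusted p = 0.22). It passed with the mouse as a block (-1.30, adjusted p = 1.3e-05), without a filter (0.00064) and without day 7 replicate 1 (-2.38, 9.1e-05), and was -0.40 without day 5 replicate 1.

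*Ehf* and *Elf3* are epithelial ETS factors. *Ehf* went from 156, 147 and 169 CPM to 310, 436 and 599 CPM (1.51 ± 0.22), with mouse 3 highest and mouse 1 lowest. *Elf3* went from 19.8, 14.1 and 21.6 CPM to 75.2, 90.3 and 37.2 CPM (1.86 ± 0.30), with the order of the mice that the *Sprr2* genes had. *Prdm1*, encoding BLIMP1, had 2 counts in 5-day and 107 in 7-day libraries, a ratio of 51.1 (13.8 to 427), or 28.5 (7.38 to 244) without day 7 replicate 1. *Klf4*, a factor of the epidermal barrier, had 451, 503 and 433 CPM and then 635, 376 and 301 CPM and did not pass (-0.08 ± 0.23). Its sign turned without day 7 replicate 2 (0.02) or 3 (0.13). *Nfe2l2*, encoding NRF2, had 411, 381 and 390 CPM and then 316, 335 and 390 CPM and did not pass (-0.18 ± 0.18). Of the POU factors on the list, *Pou2f3* had 1 count in the 6 libraries, and *Pou3f1* had 13.2, 14.6 and 14.1 CPM and then 22.6, 22.2 and 19.1 CPM (0.62 ± 0.26, adjusted p = 0.13).

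Outside the family, the genes whose log2 CPM followed the summed *Sprr* level most closely over the 6 libraries were *Lce3a* (Pearson's r = 0.999), *Cnfn* (0.999), *Dynlt3* (0.998), *Cdsn* (0.997) and *Mtln* (0.997), out of 8162 genes whose mean over all libraries reached 10 CPM. These values share libraries and the step between the days, and 6 points describe them only. *Cdsn*, encoding corneodesmosin of the cornified layer's junctions, had 0 counts at day 5 and 18.8, 42.4 and 11.3 CPM at day 7, at least 18.9-fold higher, or 11.8-fold without day 7 replicate 2. *Dynlt3*, a dynein light chain, changed far less, from 693, 724 and 716 CPM to 1110, 1165 and 988 CPM. *Mtln*, a small mitochondrial protein, went from 22.3, 21.6 and 23.1 CPM to 38.7, 44.4 and 32.8 CPM. Mouse 2 was the highest and mouse 3 the lowest at day 7 for all 5. Nothing follows from this, since the 5 were picked by their likeness to the *Sprr* sum over these libraries.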

How the data were processed

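RNA of 5-day and 7-day mSGOs from 3 mice (3 libraries per day) was sequenced by the authors with the Lexogen QuantSeq 3′ mRNA-Seq kit. The deposited values are whole-number read counts per Ensembl gene, not normalised, aligned by the authors to GRCm39. The aligner, annotation, strand setting and read length are not given in the sources used here. Entries that name no gene (9.12% to 14.4% of reads) were left out. Names came from GENCODE vM39, which matched 43465 of 47643 IDs. Genes counted at least once in 2 or more libraries were tested with edgeR 4.0.16 (R 4.3.3, TMM, quasi-likelihood F test, day as the only term) and Benjamini-Hochberg adjustment. The fit was tested on simulated data. CPM are counts per 1000000 of the TMM-scaled library size, and intervals are exact at 95% and cover counting error only. Motifs were searched in the 200 bases before each GENCODE canonical start.

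The genes and lists were chosen with earlier results of these data known. Named are the 10 genes, the other *Sprr* genes, the 4 smallest p-values of each list, *Ivl*, *Loricrin*, *Tgm1*, *Klf4*, *Fosl1* and *Nfe2l2*, 5 genes of like pattern and the flanking genes. *Junb*, *Jund*, *Fosl2*, *Fos*, *Pou2f3*, *Pou3f1*, *Prr9*, *Lce1h*, *Flt1* and *Cd68* were added after their values were seen. So were *Aqp5*, *Cd14*, *Fbln1*, *Krt8* and *Krt19*, whose calls under other settings are not given. Libraries with the same number came from the same mouse, per the labels. Their deviations from the mean of the day had correlations of 0.14, -0.10 and 0.16 over 8172 genes. Libraries of a day differed beyond sampling noise (chi-square per degree of freedom 1.99 to 3.24 between pairs of day 5 and 12.3 to 19.9 between pairs of day 7). The alternatives were DESeq2 1.42.0 size factors and Wald test, upper-quartile and total-count scaling, no filter, filterByExpr, robust fitting, the mouse as a block, and each library left out.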

Additional observations from a re-analysis of the deposited data

How the results depend on the processing

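Of the 10 *Sprr* genes, all 10 stayed past the threshold under the other scalings, no filter, robust fitting and the mouse as a block. The number was 9 under filterByExpr, which drops *Sprr2b*, and under the DESeq2 Wald test. With all 6 libraries, from 1578 (DESeq2 Wald test) to 2405 (no filter) of all genes were past it in either direction. Leaving out 1 library gave 8 to 10 of the *Sprr* genes. Since the 10 were picked by this difference, nothing follows from these counts. The log2 ratio of summed levels was 3.48, 3.40 to 3.48 under the other scalings and 3.04 to 3.79 with 1 library left out. The share of *Sprr2f* in the *Sprr2* count at day 7 was a mean of 72.2%, 70.7% with the other *Sprr2* genes added, and 70.7% to 73.2% with 1 library left out. With 1 library left out, the number past the threshold ranged from 797 to 2576 for all genes (1901), from 6 to 14 for envelope partners (12), from 7 to 11 for the late cornified envelope list (9), from 2 to 5 for S100 genes (4) and from 8 to 19 for regulators (15). Scaling by library totals only gave 2 S100 genes. With 5 rather than 6 libraries fewer degrees of freedom remain. With the mouse as a block (paired fit), 2340 genes passed. They held 10 of the 10 *Sprr* genes, 11 envelope partners, 9 of the late cornified envelope list, 3 S100 genes and 17 regulators. Among the named genes that were tested, *Aqp5*, *Cd14*, *Fbln1*, *Krt8* and *Krt19* aside, it changed the calls of *S100a16*, which was lost, and *Fos*, which was gained. Directions turned for *Sprr2a3* without day 7 replicate 1 (-0.56, range 0.78 down to that value with 1 library left out) and for *Klf4* without day 7 replicate 2 (0.02) or 3 (0.13, with -0.45 at the other end of the range), none of them past the threshold. Under robust fitting *Lce3a* (adjusted p = 0.10), *Tgm1* (0.072), *Sprr2j-ps* (0.055) and *Junb* (0.21) lost their calls, under the DESeq2 Wald test *Sprr2b* (0.090) and *Tgm1* (0.072), and under filterByExpr *S100a1* (0.060) and *Junb* (0.075). Depth limits the 5-day values of *Sprr2d*, *Sprr2e*, *Sprr2g*, *Sprr2i* and *Sprr3*, which rest on 0 to 5 counts in all.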
